A study of Mus musculus and Homo sapiens with 41 samples.

Results

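The genes described here carry a symbol that starts with Psm, followed by a letter from a to g and a number, with pseudogenes left out. They numbered 50 of the 53756 genes listed for granulocyte-monocyte progenitors (GMPs) and 48 of the 13238 listed for 416b cells, where Psma8 and Psmb11 were not listed. By role they were 8 alpha and 8 beta genes of the proteasome core, 3 immunoproteasome genes, 6 ATPases of the regulatory particle, 14 genes named Psmd, 5 activator genes, 5 genes for assembly factors and an inhibitor, and Psmc3ip. Psmc3ip encodes a factor of meiotic recombination named after its binding to Psmc3, and it was kept because its symbol meets the rule although it is no subunit. Psmb11, the beta subunit of thymic epithelium, was at 1.0 and 1.9 normalized counts in the WT libraries and at 2.0 and 0.0 in the Zbtb16lu/lu libraries, so that 49 of the 50 genes passed the filter on low values and were tested.

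The study asked how PLZF, a zinc finger transcription factor encoded by Zbtb16, acts in myeloid progenitors. GMPs, cells without lineage markers and Sca-1 that carry C-kit, Cd34 and FcγR, were sorted from lethally irradiated C57BL/6 Cd45-1 mice reconstituted with bone marrow of C57BL/6 WT or C57BL/6 Cd45-2 Zbtb16lu/lu mice, and 2 RNA-seq libraries per genotype were analysed. The recipients shared the irradiation and the transplantation, and the age of the donors was not given in the sources used here. 416b, a Cd34+ murine myeloid progenitor cell line, was transduced with a lentivirus carrying PLZF-Flag or with the Empty vector, and 1 library was analysed per condition.

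The proteasome is the protease that degrades most ubiquitinated proteins of the cell. Its core is a barrel of stacked rings, in which alpha subunits form the gate and beta subunits carry the proteolytic sites, and a regulatory particle on its ends binds ubiquitin, unfolds the substrate with a ring of ATPases and removes the ubiquitin chain. In immune and interferon-exposed cells Psmb8, Psmb9 and Psmb10 replace the catalytic subunits Psmb5, Psmb6 and Psmb7, which favours peptides suited to MHC class I. Transcription of the subunit genes is known to be raised together by Nfe2l1 (Nrf1), through antioxidant response elements, when proteasome activity falls short.

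Values are normalized counts, that is, read counts divided by a size factor for each library. They are listed in the order WT libraries 1 and 2, then Zbtb16lu/lu libraries 1 and 2. The column headers of WT library 1 and Zbtb16lu/lu library 2 carry the same date-like number, and the other headers carry other numbers. Normalized counts summed to between 38562940 and 40130730 per library in GMPs. In 416b cells the reads recovered from the smallest value came to 54529689 in Empty vector and 19995819 in PLZF-Flag. Zbtb16 itself stood at 705 and 828 normalized counts in WT and at 269 and 369 in Zbtb16lu/lu, with no overlap, a log2 difference of -1.28 (SE 0.20, n = 2 per genotype) and an adjusted p of 0.299 by limma. In 416b cells PLZF-Flag had 2541 and Empty vector 382, which gives a log2 ratio of 2.73 (2.60 to 2.87 as 95% interval, counting error only). All 12 GMP markers fixed for the check, such as Mpo and Cd34, were detected in GMPs, and their summed counts lay between 748703 and 758443 in WT and between 860482 and 869550 in Zbtb16lu/lu. In 416b cells 11 of the 12 were listed. Elane was not, and Mpo stood at 12 and 3 normalized counts. Of 12 mature neutrophil markers, all 12 had a higher mean log2 level in Zbtb16lu/lu and 7 lay above WT without overlap, as 21.7% of all genes did (Ltf stood at 56.7, 11.6, 846 and 305). The list summed to 16050 and 8993 in the WT libraries and to 23969 and 13126 in the mutant ones. Of 8 monocyte markers, 6 were above WT without overlap, beside the same 21.7%, and that list summed to 86674 and 101325 in the WT libraries and to 124744 and 117780 in the mutant ones. Erythroid markers summed to 285, 1588, 1260 and 485 and megakaryocyte markers to 2221, 5842, 3267 and 1725, so that both were lowest in the 2 libraries whose headers share a number. Mast cell and basophil markers summed to 8302, 8147, 7555 and 5835, and the 3 stem cell markers to at most 319. The part of these other cells in the proteasome values was not tested, and in bulk libraries fewer cells of a type and less RNA per cell cannot be told apart. T cell markers were near 0, with sums of at most 25 normalized counts, and of the B cell markers only Cd79b passed the filter on low values.

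With all 4 libraries, most proteasome genes had a slightly lower mean level in Zbtb16lu/lu GMPs, but without WT library 1 only 24 of 49 did. Of the 49 genes tested, 38 (77.6%) had a lower mean log2 level in Zbtb16lu/lu, beside 50.9% of all genes and 58.8% of those averaging 1000 or more, and 11 a higher one. The median log2 difference was -0.09 against -0.01 over all 20531 genes tested. None of the 49 passed the threshold, an adjusted p under 0.08 by limma, and none of all genes tested did (0%), Zbtb16 included, the smallest adjusted p being 0.343 for a proteasome gene (Psmd12) and 0.299 over all genes. At an unadjusted p under 0.05, 7 proteasome genes were lower, beside 4.37% of all genes, and 1 (Psmb9) was higher, beside 5.50% of all genes. The 2 Zbtb16lu/lu libraries lay below both WT libraries for 19 genes, beside 22.1% of all genes, and above both for 2 (Psmb8 and Psmb9), beside 21.7% of all genes. With trimmed mean (TMM) scaling of the libraries in place of the size factors the 19 became 12, and with equal library totals they became 24. The proteasome genes are abundant, and of the 7444 genes that averaged 1000 normalized counts or more, 30.8% lay below WT without overlap and 7.55% were lower at an unadjusted p under 0.05. The members among them numbered 44, of which 18 lay below WT and 7 were lower at that p. These p-values rest on the spread between the libraries at hand, which the fit moderates by that of genes of like abundance.

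**Figure D1:**
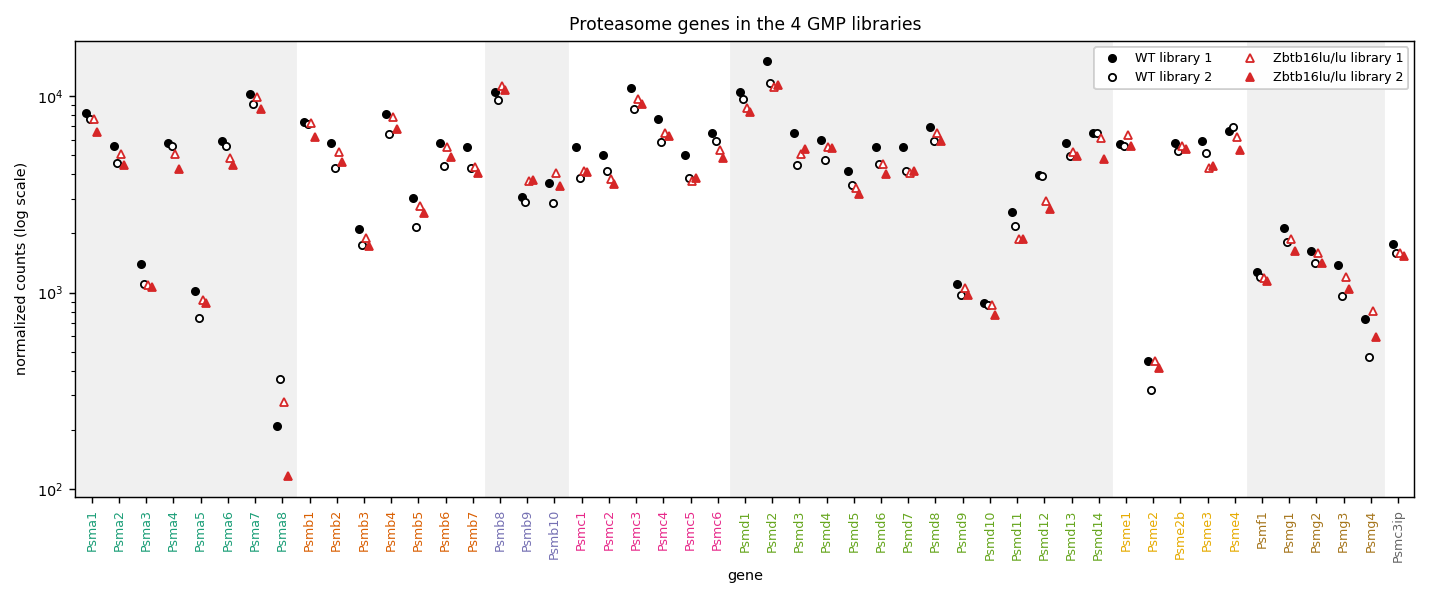
Normalized counts (log scale) of the 49 tested proteasome genes in each GMP library, with WT as circles, Zbtb16lu/lu as triangles and the filled symbols for the libraries whose headers share a number. Psma8 and Psme2 lie lowest, and WT library 1 is above WT library 2 for 46 of the 49 genes.

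**Figure D2:**
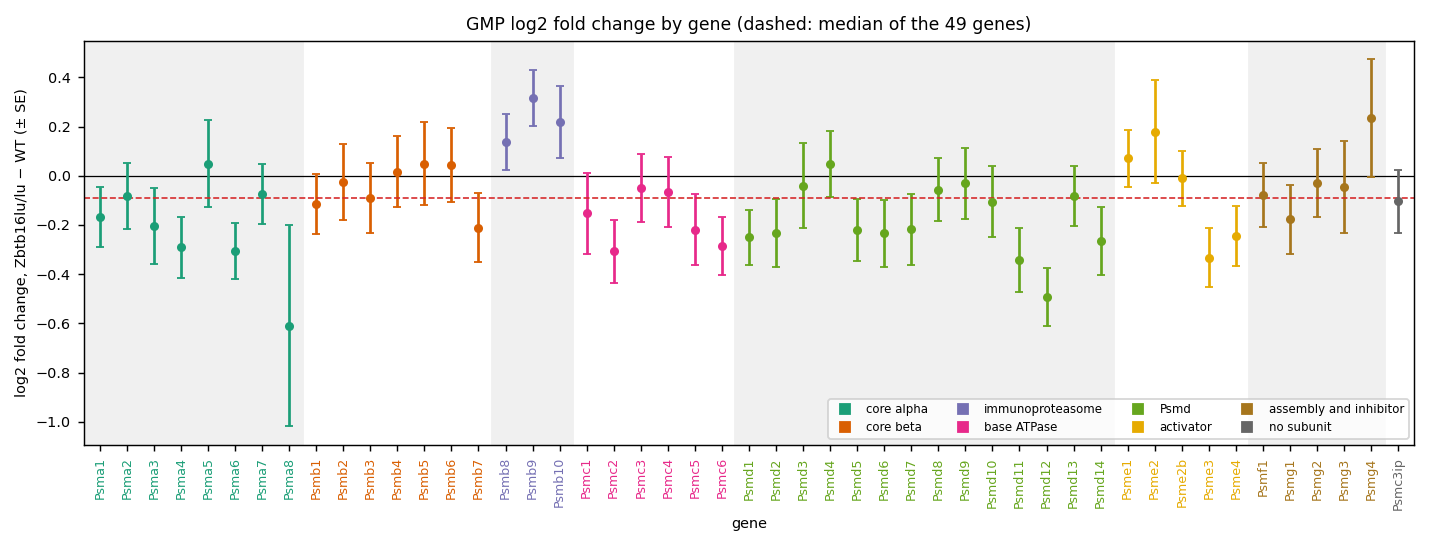
Log2 difference between Zbtb16lu/lu and WT for each gene (points) with its standard error from limma (bars), coloured by role. Of the 49 points 38 lie below 0, all 3 immunoproteasome genes lie above 0, and the dashed line is the median of -0.09.

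WT library 1 stood apart for these genes. It was above WT library 2 for 46 of 49 proteasome genes (51.0% of all genes tested), by a median of 0.23 on the log2 scale. Zbtb16lu/lu library 2, of the same header number, was below Zbtb16lu/lu library 1 for 42 of 49 (11133 of all 20531 genes), by a median of -0.12. Between the libraries that share a number, 47 of 49 genes were lower in Zbtb16lu/lu, with a median of -0.31, and between the other pair 20 of 49 were lower, with a median of 0.06. Of all genes 50.6% were lower in each pair, and of those averaging 1000 or more 63.3% and 51.2%. Without WT library 1 the median over the 49 genes was 0.01, with 24 genes lower in place of 38, and without WT library 2 it was -0.22, with 45 lower. Without Zbtb16lu/lu library 1 it was -0.16, with 41 lower, and without Zbtb16lu/lu library 2 it was -0.04, with 28 lower. The size of the median therefore depended on each of the 4 libraries, and its sign turned without WT library 1.

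**Figure D3:**
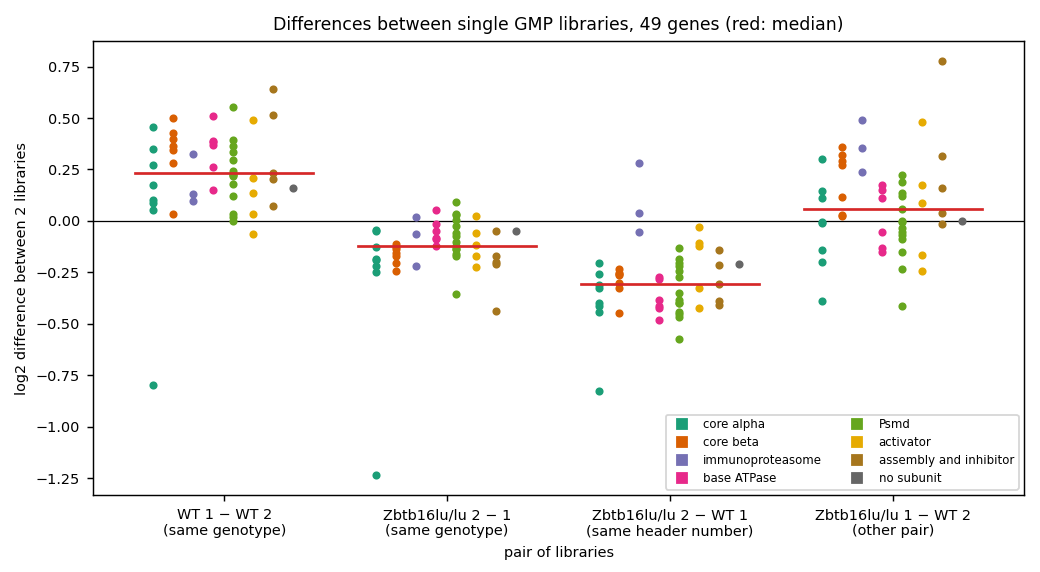
Log2 difference between single GMP libraries for the 49 proteasome genes (points, coloured by role; red line, median), with pairs of the same genotype on the left and Zbtb16lu/lu minus WT pairs on the right. The medians are 0.23, -0.12, -0.31 and 0.06 from left to right, so the median between the WT libraries is nearer in size to -0.31 than to 0.06.

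The alpha subunits form the outer rings of the core and its gate. Of 8 genes, 7 had a lower mean log2 level in Zbtb16lu/lu, 4 lay below WT without overlap, beside 22.1% of all genes and 30.8% of abundant ones, and the median difference was -0.19. In the pair of shared number all 8 were lower, with a median of -0.36, and in the other pair 5 of 8 were, with a median of -0.01 and Psma5 (0.30), Psma2 (0.15) and Psma7 (0.11) higher. Psma6 stood at 5936 and 5581 in WT and at 4862 and 4455 in Zbtb16lu/lu (log2 difference -0.31, SE 0.11, adjusted p = 0.468 by limma). Psma4 stood at 5784 and 5568 in WT and at 5056 and 4257 in Zbtb16lu/lu (log2 difference -0.29, SE 0.12, adjusted p = 0.498 by limma). The difference of Psma4 was -0.167 without Zbtb16lu/lu library 2 and -0.415 without Zbtb16lu/lu library 1. Both Zbtb16lu/lu libraries were below both WT libraries for Psma4 and Psma6, also in the pair that excludes WT library 1, with log2 differences of -0.14 and -0.20. Psma8, the alpha subunit of the testis proteasome, stood far below the others at 209, 364, 277 and 117 normalized counts, and its genotypes overlapped (log2 difference -0.61, SE 0.41). The other alpha genes lay between -0.20 (Psma3) and 0.05 (Psma5).

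The constitutive beta subunits carry the chymotrypsin-like (Psmb5), caspase-like (Psmb6) and trypsin-like (Psmb7) sites. None of the 7 genes tested separated the genotypes without overlap, and their median difference was -0.03. The pairs of libraries went opposite ways, since all 7 were lower in Zbtb16lu/lu in the pair of shared number, with a median of -0.26, and all 7 higher in the other, with a median of 0.27. Psmb5 stood at 3042 and 2152 in WT and at 2763 and 2534 in Zbtb16lu/lu, with a log2 difference of 0.05 (SE 0.17). Psmb6 stood at 5780 and 4386 in WT and at 5481 and 4920 in Zbtb16lu/lu, with a log2 difference of 0.04 (SE 0.15). For Psmb5 and Psmb6 both mutant libraries lay between the WT libraries. The sign of both differences turned negative without WT library 2 and also without Zbtb16lu/lu library 1 (-0.014 and -0.033). It turned negative as well with an offset for gene length, alone or with GC content. Psmb7 stood at 5506 and 4281 in WT and at 4362 and 4036 in Zbtb16lu/lu, with a log2 difference of -0.21 (SE 0.14, adjusted p = 0.625 by limma), which was -0.03 without WT library 1 and -0.39 without WT library 2. With an offset for gene length and GC content it was -0.11. Psmb1 (7374, 7209, 7321 and 6191) and Psmb3 (2118, 1741, 1890 and 1719), which carry no active site, had log2 differences of -0.12 and -0.09, which became -0.05 and -0.17 with that offset.

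The immunoproteasome genes were the group in which no member had a lower mean log2 level in Zbtb16lu/lu. Their median difference was 0.04 in the pair of shared number, where 1 of the 3 was lower, and 0.36 in the other, where none was. Psmb9 lies at chr17:34181987-34187764 on the minus strand and Psmb8 at chr17:34197721-34201454 on the plus strand (mm10), inside the MHC locus. Psmb9 stood at 3077 and 2880 in WT and at 3687 and 3734 in Zbtb16lu/lu, so that the genotypes did not overlap. Its log2 difference was 0.32 (SE 0.11, unadjusted p = 0.0218 and adjusted p = 0.465 by limma), with 0.28 in the pair of shared number and 0.36 in the other. Psmb8 stood at 10439 and 9523 in WT and at 11210 and 10727 in Zbtb16lu/lu, again without overlap, with a log2 difference of 0.14 (SE 0.11, adjusted p = 0.682), 0.04 in the pair of shared number and 0.24 in the other. Psmb10, at chr8:105935735-105938444, stood at 3600 and 2872 in WT and at 4038 and 3466 in Zbtb16lu/lu, so that it overlapped, and its log2 difference was 0.22 (SE 0.15, adjusted p = 0.622), -0.05 in the pair of shared number and 0.49 in the other. Without WT library 2 it was 0.06 and without WT library 1 it was 0.38. With an offset for gene length and GC content the difference of Psmb8 was 0.00 (SE 0.11), that of Psmb10 turned to -0.04, that of Psmb9 was 0.18, and Psmb9 no longer reached an unadjusted p under 0.05 there or without the intensity trend of the fit.

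Set against its constitutive counterpart and per exon length, Psmb10 to Psmb7 stood at 1.31 and 1.35 in WT and at 1.86 and 1.72 in Zbtb16lu/lu, without overlap. The log2 difference of this ratio was 0.43, and it was 0.39 in the pair of shared number and 0.46 in the other. With the offset for gene length and GC content it was 0.06. Psmb9 to Psmb6 stood at 0.272 and 0.336 in WT and at 0.344 and 0.388 in Zbtb16lu/lu, also without overlap, with log2 differences of 0.51 and 0.04 in those pairs. Psmb8 to Psmb5 stood at 0.913 and 1.18 in WT and at 1.08 and 1.13 in Zbtb16lu/lu and overlapped. With 2 libraries against 2, an exact two-sided permutation test cannot give a p below 0.333, so these ratios were not tested. Lengths are those of all annotated exons joined, and a ratio across genes shifts with the transcripts a cell uses.

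**Figure D4:**
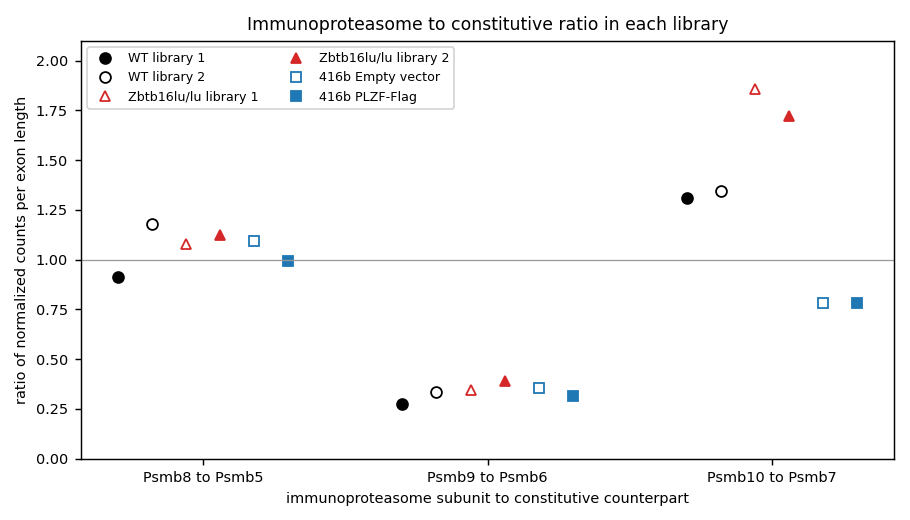
Ratio of normalized counts per exon length of each immunoproteasome gene to its constitutive counterpart in the 4 GMP and the 2 416b libraries. Psmb10 to Psmb7 lies at 1.31 to 1.35 in WT and 1.72 to 1.86 in Zbtb16lu/lu, and at 0.783 and 0.781 in 416b cells.

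Psmc1 to Psmc6 encode the ring of ATPases that unfolds the substrate and opens the gate. All 6 had a lower mean log2 level in Zbtb16lu/lu, with a median difference of -0.19. Of the 6, 3 lay below WT without overlap, beside 22.1% of all genes and 30.8% of abundant ones, and 1 of these 3, Psmc5, by less than 1 normalized count. Psmc6 stood at 6520 and 5875 in WT and at 5298 and 4865 in Zbtb16lu/lu (log2 difference -0.29, SE 0.12, adjusted p = 0.490 by limma), and with the offset for gene length and GC content the difference was -0.15. Psmc2 stood at 5007 and 4168 in WT and at 3805 and 3580 in Zbtb16lu/lu (log2 difference -0.31, SE 0.13, adjusted p = 0.491 by limma), with -0.18 without WT library 1 and -0.44 without WT library 2. Psmc5 stood at 5029 and 3847 in WT and at 3707 and 3847 in Zbtb16lu/lu (log2 difference -0.22, SE 0.14), and its difference was -0.03 without WT library 1 and -0.41 without WT library 2. The median over the ATPases was -0.40 in the pair of shared number and 0.03 in the other.

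The Psmd genes encode the non-ATPase subunits of the regulatory particle, with the scaffold and ubiquitin receptors of its base (Psmd1, Psmd2 and Psmd4), the lid with the deubiquitinase Psmd14, and the base chaperones Psmd5, Psmd9 and Psmd10. Of 14 genes, 13 had a lower mean log2 level in Zbtb16lu/lu and 9 lay below WT without overlap, beside 22.1% of all genes and 30.8% of abundant ones, and the median difference was -0.22, the lowest of the groups with more than 1 gene. All 8 lid genes were lower, with a median of -0.23. Psmd12, a lid scaffold subunit, stood at 3965 and 3910 in WT and at 2936 and 2667 in Zbtb16lu/lu. Its WT libraries were nearly equal, and the log2 difference was -0.49 (SE 0.12, unadjusted p = 0.00243 and adjusted p = 0.343 by limma), -0.57 in the pair of shared number and -0.41 in the other. Psmd11, the lid subunit that contacts the core, stood at 2560 and 2192 in WT and at 1864 and 1872 in Zbtb16lu/lu (log2 difference -0.34, SE 0.13, adjusted p = 0.468). Psmd1 stood at 10539 and 9685 in WT and at 8708 and 8276 in Zbtb16lu/lu (log2 difference -0.25, SE 0.11, adjusted p = 0.508). Psmd4, a ubiquitin receptor, was the one exception to the direction, at 5954, 4726, 5525 and 5435 (log2 difference 0.05, SE 0.13). The median of the Psmd genes was -0.37 in the pair of shared number and -0.02 in the other.

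The activators bind the ends of the core in place of the regulatory particle, with Psme1 and Psme2 induced by interferon, Psme3 in the nucleus, and Psme4 binding as a single large chain. Psme3 stood at 5914 and 5117 in WT and at 4328 and 4405 in Zbtb16lu/lu without overlap (log2 difference -0.33, SE 0.12, unadjusted p = 0.0220 and adjusted p = 0.465 by limma). Psme4 stood at 6655 and 6954 in WT and at 6202 and 5307 in Zbtb16lu/lu without overlap (log2 difference -0.25, SE 0.12, adjusted p = 0.534), and with the offset for gene length and GC content the difference was -0.11. The difference of Psme4 was -0.13 without Zbtb16lu/lu library 2 and -0.36 without Zbtb16lu/lu library 1. The interferon-induced Psme1 (5719, 5595, 6310 and 5599) overlapped, with a log2 difference of 0.07. Psme2 stood at 449, 319, 447 and 412, and Psme2b, a retrocopy without introns at chr11:48945354-48946190, at 5775, 5256, 5576 and 5362. Reads of Psme2 and Psme2b can be assigned to either, so each is uncertain, and their sum differed by a log2 value of 0.00 between genotypes. The median over the 5 activator genes was -0.12 in the pair of shared number and 0.09 in the other.

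The assembly chaperones Psmg1 to Psmg4 build the alpha ring, and Psmf1 inhibits the core. Psmg1 stood at 2136, 1820, 1869 and 1628, with a log2 difference of -0.18 (SE 0.14), and Psmg4 at 732, 469, 803 and 592, with a log2 difference of 0.24 (SE 0.24), and both overlapped. With the offset for gene length and GC content the differences were -0.21 for Psmg1 and 0.06 for Psmg4. Psmf1 stood at 1266 and 1204 in WT and at 1190 and 1149 in Zbtb16lu/lu, and was the only gene of this group without overlap (log2 difference -0.08, SE 0.13). Psmc3ip, which is no subunit, stood at 1769, 1583, 1585 and 1531, with a log2 difference of -0.10 (SE 0.13). Without WT library 1 the differences were -0.06 for Psmg1, -0.04 for Psmf1 and -0.02 for Psmc3ip.

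The promoters of 4 genes are shown because they include genes that did and did not separate the genotypes and hold the letters TGACNNNGC, the core of the antioxidant response element. They were chosen after the values were seen. RefSeq windows (GRCm38.p6) of 250 bases before the start were held for 42 of the 50 genes. The stretches below are printed 5′ to 3′ in the direction of the gene and cut to the bases outside annotated exons, with the match, on either strand, in capitals. They lie at chr14:54618023-54618245 on the minus strand (Psmb5), and on the plus strand at chr11:70525107-70525356 (Psmb6), chr14:45329574-45329787 (Psmc6) and chr11:107479278-107479483 (Psmd12).
Psmb5: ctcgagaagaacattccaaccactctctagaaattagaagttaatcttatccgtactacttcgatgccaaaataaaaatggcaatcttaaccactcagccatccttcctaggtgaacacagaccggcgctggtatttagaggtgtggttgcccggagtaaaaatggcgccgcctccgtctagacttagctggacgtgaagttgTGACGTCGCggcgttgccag
Psmb6: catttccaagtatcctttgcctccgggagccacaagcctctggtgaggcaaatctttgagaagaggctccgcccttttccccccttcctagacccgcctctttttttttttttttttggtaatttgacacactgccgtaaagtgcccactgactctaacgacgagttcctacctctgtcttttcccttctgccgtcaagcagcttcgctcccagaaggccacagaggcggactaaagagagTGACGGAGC
Psmc6: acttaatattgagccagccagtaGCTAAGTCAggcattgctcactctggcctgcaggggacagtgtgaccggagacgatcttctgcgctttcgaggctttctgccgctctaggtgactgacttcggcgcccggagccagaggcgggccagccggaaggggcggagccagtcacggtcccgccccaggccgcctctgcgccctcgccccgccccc
Psmd12: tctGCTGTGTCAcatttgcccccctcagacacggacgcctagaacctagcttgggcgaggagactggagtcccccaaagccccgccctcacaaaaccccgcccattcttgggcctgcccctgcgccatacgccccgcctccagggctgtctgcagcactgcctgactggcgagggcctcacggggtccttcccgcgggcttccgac
The match starts 47 bases before the RefSeq start in Psmb5 and 9 bases before it in Psmb6, whose levels overlapped between genotypes. In Psmc6 and Psmd12, whose mutant libraries lay below both WT libraries, the match lies on the other strand, 227 and 247 bases before the start. The motif was found in 5 of 42 proteasome promoters (11.9%), the fifth being Psmd9, and in 11.5% of the promoters of 27025 genes. CCAAT was found in 15 of 42 (35.7%) and in 37.5% of all. GAAANNGAA, a spaced pair of half-sites of interferon regulatory factors, was found in Psmb3, Psmd4 and Psmd9 (7.14%, against 8.18% of all) and in none of the 3 immunoproteasome promoters. TTCNNNGAA, the core bound by STAT factors, was found in Psmb8 and Psmg1 (4.76%, against 8.13% of all). The Psmb8 window with this match has its lowest coordinate at chr17:34197945, and a Psmb9 window at chr17:34187331. Both lie inside the GENCODE gene spans given above, so sequence before the GENCODE starts of these genes was not searched in them. Both strands were searched, none of these motifs contains another, and a match is not a binding site.

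Beyond the subunits, 23 of 24 genes for regulators of the proteasome, its shuttle factors and ubiquitin supply were in the GMP table. Of them 19 had a lower mean log2 level in Zbtb16lu/lu, 14 lay below WT without overlap (22.1% of all genes and 30.8% of abundant ones did) and 0 passed the threshold, with a median difference of -0.10. At an unadjusted p under 0.05, 2 of the 23 were lower, which is near the share of abundant genes (7.55%). The 2 were the deubiquitinases that sit on the regulatory particle. Uchl5 stood at 4269 and 4476 in WT and at 3555 and 3189 in Zbtb16lu/lu (log2 difference -0.38, SE 0.12, adjusted p = 0.428 by limma). Usp14 stood at 4973 and 4597 in WT and at 3950 and 3447 in Zbtb16lu/lu (log2 difference -0.37, SE 0.12, adjusted p = 0.428 by limma). Nfe2l1 stood at 4586, 4153, 4048 and 4084 (log2 difference -0.10, SE 0.12), and Pomp, the chaperone of core maturation, at 3399, 2809, 3205 and 2978 (log2 difference 0.00). In this list WT library 1 was above WT library 2 for 16 of 23 genes.

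Of 12 genes for MHC class I and peptide loading, 6 lay above WT without overlap (21.7% of all genes did) and 2 below (22.1%). At an unadjusted p under 0.05 there were 4 higher genes (5.50% of all) and 1 lower gene (4.37% of all), with 0 past the threshold. Tapbp, which links the class I molecule to the transporter, stood at 3901 and 4053 in WT and at 5579 and 5405 in Zbtb16lu/lu (log2 difference 0.47, SE 0.11, adjusted p = 0.343 by limma). The peptide transporter genes Tap2 (3935, 3900, 5284 and 5412) and Tap1 (4706, 5379, 6676 and 6453) had log2 differences of 0.45 and 0.38. Their differences had the direction of those of Psmb8 and Psmb9. Those of the endoplasmic reticulum chaperones Pdia3 (38338, 31702, 26591 and 24396) and Calr had the opposite one, at -0.45 and -0.32. H2-K1 and H2-D1, whose reads can be shared with related class I genes, had log2 differences of 0.22 and 0.27.

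In 416b cells, no proteasome gene differed by 1.2-fold between PLZF-Flag and Empty vector, in either direction. Of the 11836 genes averaging 10 normalized counts or more, 6.13% were at least that much higher and 9.22% at least that much lower. With 1 library per condition there is no test, and the 95% intervals (exact binomial) cover counting error only. The log2 ratios of the 48 genes ran from -0.08 (Psmd1) to 0.20 (Psmb6), with a median of 0.02 against 0.00 over all genes, and 31 were above 0. The interval lay above 0 for 15 genes, beside 16.1% of all genes, and below 0 for 3, beside 15.9% of all genes. For genes averaging 1000 or more, which include 47 of the 48, these shares were 22.2% and 19.4%. The widest ratio, that of Psmb6, was 1.15-fold.

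By role, the ATPases had a median log2 ratio of 0.11, with 4 of 6 intervals above 0, and the Psmd genes one of 0.05, with 6 of 14 above 0 and 1 below, beside the 22.2% and 19.4% of genes averaging 1000 or more. Psmb6, of the caspase-like site, had 6215 normalized counts with Empty vector against 7122 with PLZF-Flag (log2 ratio 0.20, interval 0.14 to 0.25). Psmc5 stood at 4492 and 5117 (log2 ratio 0.19, interval 0.13 to 0.25). Psmb5 stood at 3405 and 3650 (log2 ratio 0.10, interval 0.03 to 0.17), and Psmb7 at 7456 and 7320 (log2 ratio -0.03, interval -0.08 to 0.02). The immunoproteasome genes Psmb8 (13992 and 13621), Psmb9 (4302 and 4402) and Psmb10 (2910 and 2849) had log2 ratios of -0.04, 0.03 and -0.03. Of these 3 only the interval of Psmb8 excluded 0, narrowly, at -0.0753 to -0.0025. Psmd12 stood at 4806 and 5241 (log2 ratio 0.13, interval 0.07 to 0.18).

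**Figure D5:**
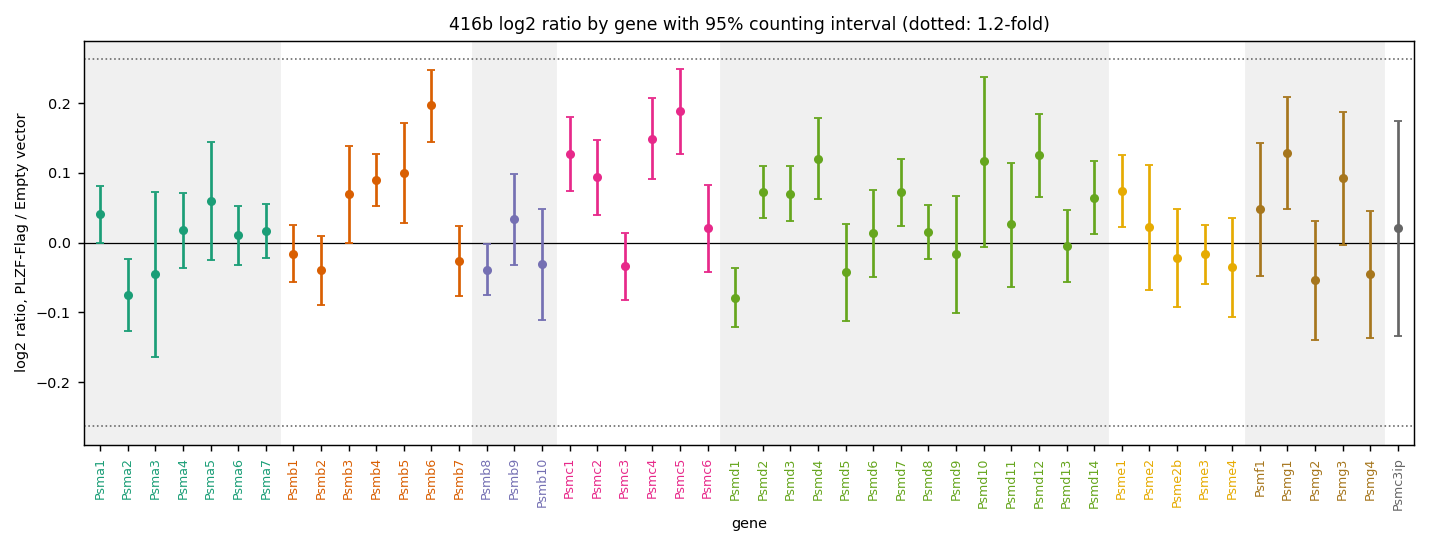
Log2 ratio between PLZF-Flag and Empty vector 416b cells for 48 proteasome genes (points) with the 95% counting interval (bars), coloured by role, and dotted lines at 1.2-fold. All 48 points lie inside the dotted lines, from -0.08 for Psmd1 to 0.20 for Psmb6.

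The loss of PLZF in GMPs and its gain in 416b cells share no sample, and the cells and library kits differ. Of the 48 genes in both, 37 were lower in Zbtb16lu/lu and 31 higher in PLZF-Flag, which with no relation between them gives 23.9 genes that are both, and 23 were. A further 14 were lower in both comparisons. The 2 sets of differences had a Pearson r of -0.07 across these 48 genes, which are not independent and share the libraries. Psmd12 was at -0.49 in Zbtb16lu/lu and 0.13 in PLZF-Flag, Psmc5 at -0.22 and 0.19, and Psme3 at -0.33 and -0.02. Of the MHC class I list, 10 of 12 genes had an interval below 0 in 416b cells, beside 15.9% of all genes and 19.4% of those averaging 1000 or more. Tapbp was at -0.22, Tap2 at -0.17 and Tap1 at -0.16 there, and at 0.47, 0.45 and 0.38 in Zbtb16lu/lu. Calr had the same direction in both, at -0.17 in PLZF-Flag and -0.32 in Zbtb16lu/lu. Of the regulators, 6 of 23 had an interval below 0 and 4 above (15.9% and 16.1% of all genes), with Usp14 at -0.18.

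Levels per kilobase of exon differed widely within a group, although the alpha, beta and ATPase subunits assemble in equal numbers. In WT GMPs the alpha genes without Psma8 ran from 322 normalized counts per kilobase (Psma3) to 4667 (Psma6), and the constitutive beta genes without Psmb11 from 839 (Psmb3) to 4186 (Psmb2). The ATPases ran from 912 (Psmc2) to 3752 (Psmc3), a 4.11-fold range, and the Psmd genes from 143 (Psmd9) to 3298 (Psmd2). In Empty vector 416b cells, prepared with another kit and normalized separately, the order of the alpha genes was the same, from 347 (Psma3) to 8109 (Psma6), and Psmc2 was again the lowest ATPase at 1206. Over the 48 genes the levels per kilobase in WT GMPs and in Empty vector had a Spearman rho of 0.859. Both use the same exon lengths, so part of this rank order comes from the lengths themselves.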

How the data were processed

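RNA-seq tables of GMPs (WT and Zbtb16lu/lu, 2 libraries each, of 3 RNA extractions per the study's methods) and 416b cells (Empty vector and PLZF-Flag, 1 each) were analysed. The authors aligned reads to mm10 with Subread (1.5.0 in the study's methods, where the submitters' processing notes give this version to featureCounts), counted them per gene with featureCounts and scaled the counts with size factors from DESeq2, and the deposited signal values are these normalized counts. The authors' own means, log values, fold changes and p-values were not used. The GMP kit was stranded, and whether counting used strand is not given in the sources used here.

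In GMPs, log2(value + 1) was fitted across all genes that reached 10 in 2 or more libraries by limma 3.58.1 with an intensity trend and Benjamini-Hochberg adjustment, and fold changes are on that scale. In 416b cells log2 ratios also used a pseudocount of 1. There, 89.1% (Empty vector) and 87.1% (PLZF-Flag) of the values below 1000 reads came out whole within 0.05. In GMPs 100% of values were whole multiples of the smallest within 0.001, but 2 of the columns have a step too near 1 for the rule on recovering reads, and no count test was run. The fit was checked on simulated data. The simulated libraries did not include any that stands apart as WT library 1 does, so the check does not cover that case.

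The genes and lists were chosen with earlier results of these data known. Named in full were the 3 genes of each role with the smallest unadjusted p and the 6 catalytic subunits, in 416b cells also those past 1.2-fold, and up to 6 regulators with an unadjusted p under 0.05. The others named give the extremes or illustrate a count and were chosen after their values were seen. Exon lengths and gene positions came from GENCODE M21. Alternatives of scaling, filter, pseudocount, variance model and offset, and left-out libraries, are in the closing section.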

Additional observations from a re-analysis of the deposited data

How the results depend on the processing

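No proteasome gene passed the threshold in GMPs under pseudocounts of 0.1 or 10, without the filter, with a minimum mean of 100 or 1000, with equal library totals, TMM scaling or quantile normalization, without the intensity trend, with a robust prior, offsets for gene length alone or with GC content, or a threshold of 0.05. Under these settings the median over the genes ran from -0.15 to -0.07. The 7 genes lower at an unadjusted p under 0.05 became 1 without an intensity trend, and the 1 higher became 0 there and with the offset for gene length and GC content, and otherwise the counts were 5 to 8 and 1. The 19 genes below WT without overlap were 12 to 24. The 2 genes above WT without overlap became 4 with quantile normalization and 1 with either offset. The minimum of 1000 and the offset with GC content were chosen after seeing the data. Of 285 repeats of the named fold changes, 5 reversed. With the gene length offset Psmb5 was at -0.0085 and Psmb6 at -0.024, and with GC content added Psmb5 was at -0.18, Psmb6 at -0.061 and Psmb10 at -0.041. With GC content Psmb8 was at 0.00095, and the log2 difference of Psmb10 to Psmb7 was 0.064, against 0.409 with gene length alone. Offsets for the ratios were added after seeing the data.

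Leaving out 1 library leaves 1 degree of freedom, so that the spread comes from a single pair of libraries and the lone library is taken to vary like it. The genes past the threshold then ran from 0 to 17, those lower at an unadjusted p under 0.05 from 0 to 25 and those higher from 0 to 8. The 17 and the 25 came without WT library 2 and 10 past the threshold without WT library 1. The median ran from -0.22 to 0.01, the Zbtb16 difference from -1.50 to -1.05, and the log2 difference of Psmb8 to Psmb5 from -0.09 to 0.27, of Psmb9 to Psmb6 from 0.12 to 0.425 and of Psmb10 to Psmb7 from 0.38 to 0.48. Named differences whose sign changed ran from -0.233 to 0.050 for Psmb3, from -0.067 to 0.426 for Psme2, from -0.086 to 0.556 for Psmg4, from -0.201 to 0.298 for Psmb5 and from -0.155 to 0.243 for Psmb6, each between leaving out WT library 2 and WT library 1. Those of Psma8 (-1.23 to 0.0073) and Psmb1 (-0.236 to 0.0059) were highest without Zbtb16lu/lu library 2.

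In 416b cells, 0 genes passed 1.2-fold or 1.5-fold under pseudocounts of 0.1 or 10, equal totals, TMM scaling, no filter and a minimum mean of 100 or 1000 (the last chosen after seeing the data), and the median was 0.02 in each.

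No paired analysis was possible because the labels carry no replicate numbers, and a term for the header number would leave no residual degrees of freedom. The 2 libraries per genotype limit every test, and 1 library per condition allows none in 416b cells.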
